A study of Mus musculus with 123 samples.

Results

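The genes described here are 10 members of JAK-STAT and gp130 signalling, chosen by symbol from the 24134 genes of the deposited table: the receptor subunits Il6st, Lifr, Osmr and Il6ra, the kinases Jak1 and Jak2, the transcription factors Stat3, Stat5a and Stat5b, and the inhibitor Socs3. All 10 were found in the table. The study compared sensory neurons of mouse dorsal root ganglia (DRG), picked by hand, after the right sciatic nerve had been cut (sciatic nerve transection, SNT) with neurons from the uncut opposite side of 2-month-old mice. Single neurons and pooled neurons were sequenced as full-length cDNA (Smart-seq2), to ask how individual neurons respond to nerve injury. Values are CPM, in which the counts of every library are scaled to the same total. The test of the pooled libraries used a further scaling (TMM), so its log2 changes are not ratios of the printed CPM.

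At day 3 after SNT the groups were 18 control-side and 41 SNT-side cells kept by the authors, together with 3 control-side and 3 SNT-side libraries of pooled neurons, all from offspring of CAST/Eij males and C57BL/6 females and read as 50-base single ends. At day 7 they were 14 control-side and 33 SNT-side cells from C57BL/6 mice of both sexes, read as 75-base paired ends. The labels place the day 3 neurons in L5 ganglia and the day 7 neurons in L3 to L5. Strain, sex, ganglion level, read length, the mix of neuron types and day therefore cannot be told apart between the days. The median sum of 6 large myelinated markers was 814 CPM in control and 1072.5 CPM in SNT cells at day 3. At day 7 it was 6804 and 6079 CPM. For 6 nonpeptidergic markers the median sums were 1494 and 957 CPM at day 3 and 243 and 69.9 CPM at day 7. The days are given side by side without a test of their difference. The labels do not tie cells to animals. Each side at each day therefore counts as 1 sample, and values over cells carry no p. The 3 pooled libraries of a side are parts of 1 lysate, so their spread is technical and a test compares 1 pool with 1 pool. The control side comes from operated animals and is not tissue of an unoperated mouse. The SNT side may hold uninjured cells, since the paper proposes that the cut may have spared some of its neurons. The median sum of 4 injury markers (Atf3, Sprr1a, Gal and Sox11) was 7751 CPM in SNT cells at day 3. At day 7 it was 33.6 CPM, under the highest control cell of that day at 67.7 CPM. Values of SNT cells cover all kept cells of the side, and the part of spared cells in them was not tested.

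Library totals ran from 563462 to 839135 counts in the control pools and from 1148849 to 2003817 in the SNT pools. The kept day 3 control cells held 277390 to 1368842 counts (median 862619) and the SNT cells 611647 to 1849130 (median 1323932). At day 7 control cells held 510014 to 1018545 counts (median 738947) and SNT cells 261351 to 965292 (median 575179). By the median, the SNT side was deeper at day 3 and the control side at day 7.

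The labels were checked against the data before the results. The pooled columns are named by side, whereas the accession line of the same table pairs the sides the other way. In the columns named for SNT, Atf3, a transcription factor induced in neurons by axon injury, stood at 1619, 1372 and 1409 CPM, against 8.25, 21.5 and 10.6 CPM in the columns named for control. The column names were used, and under the other pairing every pooled difference would change its sign. The neuron markers were present in every group of cells, with lowest sums over 10 genes of 10863 CPM in control and 12176 CPM in SNT cells at day 3, and of 17499 and 9864 CPM at day 7. The study's methods call the day 3 mice female, but 4 Y-linked genes summed above 10 CPM in 18 of 18 control and 41 of 41 SNT cells, with a highest Xist level of 6.79 and 7.73 CPM. At day 7, 1 of the 7 control cells labelled female had 83.3 CPM of Y-linked genes and 0 CPM of Xist, and the day 7 counts are also given without it.

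Cytokines of the interleukin-6 family signal through receptor complexes that share gp130, the product of Il6st. Ligand binding brings together Janus kinases held on the receptor tails, which phosphorylate the receptors and then STAT proteins, and these move to the nucleus and act on transcription. In sensory neurons this pathway is known for its activation after axon injury, and RNA levels do not report phosphorylation.

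In the pooled libraries 4 of the 9 members tested passed an adjusted p under 0.05 in edgeR's quasi-likelihood test with a log2 change beyond 1. Over all 13509 genes tested 15.9% were called, 1193 higher and 961 lower. The kinase Jak1, the factor Stat5a and the inhibitor Socs3 were the 3 members higher on the SNT side, and the receptor subunit Osmr was the 1 member lower. The median log2 change of the 9 members was 0.35, beside 0.02 over all genes tested. Il6ra did not reach the mean of 1 CPM that the test required. In these libraries fewer cells of a type and less RNA per cell cannot be told apart.

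**Figure D1:**
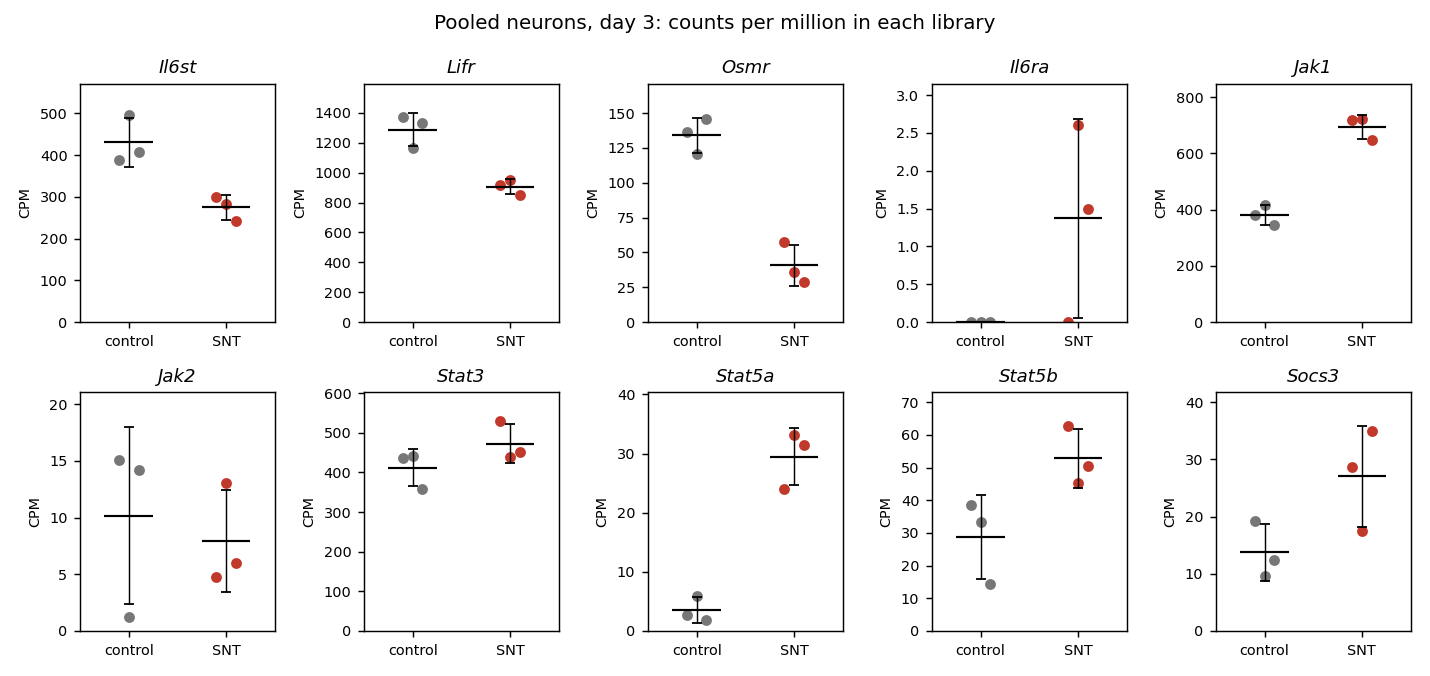
Level in CPM (vertical axis, from 0) of the 10 members in the 3 control and 3 SNT libraries of pooled day 3 neurons. Points are libraries, lines are means and bars are 1 SD over the technical libraries of a side; Stat5a, Jak1 and Osmr show no overlap of the sides, while the lowest SNT value of Socs3, 17.4 CPM, lies under its highest control value, 19.3 CPM.

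Among the receptors, Il6st encodes gp130, the subunit that passes on the signal of the whole family. It stood at 388, 497 and 406 CPM in the control pools and at 299.5, 283 and 241 CPM in the SNT pools. Every SNT library lay under every control library, and the log2 change was -0.50 (SE 0.14, edgeR adjusted p = 0.00807), inside the fold limit of the call. Lifr, which pairs with gp130 for leukaemia inhibitory factor, stood at 1371, 1163 and 1329 CPM against 918, 951 and 853 CPM. The sides did not overlap here either, at a log2 change of -0.35 (SE 0.12, edgeR adjusted p = 0.0253). For Lifr the adjusted p was under 0.05 in 10 of 15 alternative settings, over an edgeR range of 0.000976 to 0.116. For Il6st it was so in 13 of 15, over an edgeR range of 0.000494 to 0.0690. Neither gene was called in any of these settings. In single cells both receptors were found above 10 CPM in every kept cell of both days. At day 3 the mean of Il6st was 474 ± 320 CPM (SD over 18 cells) in control and 363 ± 194 CPM (41 cells) in SNT cells, with overlapping ranges. At day 7 it was 167 ± 78.6 CPM (14 cells) and 183 ± 133 CPM (33 cells). For Lifr the log2 ratio of mean CPM, with 1 CPM added, was -0.28 at day 3 and 0.45 at day 7. Neither ratio passed a log2 ratio of 1, and the sides of both genes overlapped at both days.

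Osmr, the gp130 partner for oncostatin M and, together with Il31ra, a subunit of the interleukin-31 receptor, stood at 136, 120.4 and 146 CPM in the control pools. In the SNT pools it stood at 57.4, 35.7 and 28.9 CPM. The highest SNT library thus lay under the lowest control library. The log2 change was -1.56 (SE 0.23, edgeR adjusted p = 8.81e-07), and the gene was called lower in 15 of 15 alternative settings. The single cells of day 3 gave another picture. Control cells ran from 0 over a median of 11.4 to 767 CPM of Osmr, and SNT cells from 0 over 17.02 to 494 CPM. The gene had no count in 4 of 18 and 4 of 41 cells, and the sides overlapped over nearly the whole range. It exceeded 10 CPM in 10 of 18 control cells (55.6%, exact Clopper-Pearson 95% interval 30.8 to 78.5%) and in 24 of 41 SNT cells (58.5%, 42.1 to 73.7%). The log2 ratio was 0.19, but 1 control cell held 58.6% of the summed CPM of its side, and without that cell the ratio was 1.35. At day 7 Osmr was low on both sides, with medians of 2.77 and 0 CPM. Its log2 ratio of -1.58 made it 1 of 8 members past a log2 ratio of 1 at day 7, among members that reached a mean of 10 CPM in either group. Of all 9622 genes at that level 7.66% were past it, 428 higher and 309 lower. Again 1 control cell held most of the sum, 70.8%, and without it the ratio was -0.13.

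Il6ra, the interleukin-6 binding subunit, was near the limit of these libraries. It had 0 counts in the 3 control pools and 0, 3 and 3 counts in the SNT pools, which is at or near the 3 counts that a count of 0 allows, so no fold is given. At day 3 it had a count in 2 of 18 control cells and in 14 of 41 SNT cells, and its highest level was 10.8 CPM. The summed counts came to 0.130 CPM over the control cells (2 counts, exact Poisson 95% interval 0.0157 to 0.468) and to 1.44 CPM over the SNT cells (75 counts, 1.14 to 1.81). After thinning every cell to 200000 counts it was found in 1 of 18 and 8 of 41 cells. These Poisson intervals, like the others here, cover counting error alone, and the libraries carry no molecular identifiers. The Clopper-Pearson intervals for shares of cells treat the cells as independent draws, although each side is 1 sample, and do not cover the spread between animals.

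Jak1, the kinase that gp130 receptors depend on most, stood at 381, 415 and 346 CPM in the control pools and at 717, 722 and 646 CPM in the SNT pools. The sides stood well apart. The log2 change was 1.02 (SE 0.13, edgeR adjusted p = 6.18e-08), just past the fold limit. It was called in 11 of 15 alternative settings: scaled by library size alone it was 0.86, without control library 3 it was 0.96, with a mean of at least 10 CPM required it was 0.99, thinned to the smallest library it was 0.998, and none of these was called. At day 3 control cells ran from 69.2 over a median of 179 to 568 CPM of Jak1. SNT cells ran from 49.4 over 507 to 1229 CPM. Of these 14 of 41 lay above every control cell and 1 under every control cell, and the others overlapped the control range. Over all 9736 genes the median number of SNT cells above every control cell was 1 and the 90th percentile was 10, and over 9622 genes at day 7 these were 2 and 9. The log2 ratio was 1.06, and it stayed between 1.01 and 1.19 when any single cell was left out. Jak1, Stat5a and Stat5b were the 3 of 9 members past a log2 ratio of 1 at day 3, all higher. Of all 9736 genes with a mean of 10 CPM or more in either group 11.9% were past it, 567 higher and 591 lower. At day 7 Jak1 ran from 78.4 over 389.8 to 788 CPM in control cells and from 42.4 over 669.6 to 1305 CPM in SNT cells. There 16 of 33 SNT cells exceeded every control cell, at a log2 ratio of 0.88, or 0.79 without the control cell whose sex genes differ from its label. Within the day 7 labels the ratio was 1.16 in cells of female mice, or 0.98 without that control cell, and 0.53 in cells of male mice, and their difference was not tested.

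Jak2, the kinase of growth hormone and many cytokine receptors, was low. It stood at 15.1, 1.19 and 14.2 CPM in the control pools, from 11, 1 and 8 counts, and at 4.78, 13.1 and 5.99 CPM in the SNT pools. The sides overlapped, and no difference was detectable at this depth (log2 change -0.19, SE 0.64, edgeR adjusted p = 0.869). In cells the means were 10.5 ± 12.6 and 9.95 ± 7.06 CPM at day 3, and 12.3 ± 4.98 and 12.9 ± 11.3 CPM at day 7, control side first.

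Stat3, the main STAT of gp130 receptors, stood at 436, 442 and 359 CPM in the control pools and at 529, 438 and 452 CPM in the SNT pools. In CPM the sides overlapped, while in TMM-scaled values the highest control value, 419.9, lay under the lowest SNT value, 463.6. The test missed its threshold (log2 change 0.35, SE 0.14, edgeR adjusted p = 0.0516). The adjusted p was under 0.05 in 4 of 15 alternative settings, over an edgeR range of 0.0300 to 0.319. With library number as a block the edgeR adjusted p was 0.0388. The gene was called in none of these settings, at log2 changes from 0.20 to 0.42. Single control cells of day 3 ran from 186 over a median of 387 to 660.2 CPM of Stat3 and SNT cells from 96.8 over 568 to 910.1 CPM, with 6 of 41 SNT cells above every control cell, under the 90th percentile of all genes. At day 7 its medians were 320.5 and 304 CPM, and no SNT cell exceeded every control cell. The lowest kept cell of either day, an SNT cell of day 3, still held 96.8 CPM of Stat3.

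Stat5a, a STAT activated by growth hormone, prolactin and several cytokines, was nearly absent from the control pools, at 2.75, 5.96 and 1.77 CPM from 2, 5 and 1 counts. In the SNT pools it stood at 23.9, 33.1 and 31.4 CPM from 40, 38 and 63 counts. The sides were far apart, at a log2 change of 3.1 (SE 0.49, edgeR adjusted p = 3.86e-06), and the gene was called higher in 15 of 15 alternative settings, with 3.76 without control library 2. At day 3 control cells ran from 0 over a median of 4.26 to 26.8 CPM and SNT cells from 0 over 13.9 to 327 CPM. Most SNT cells lay within the control range, and 14 of 41 lay above it. The summed counts were 7.00 CPM over the control cells (108 counts, exact Poisson 95% interval 5.74 to 8.45) and 44.6 CPM over the SNT cells (2317 counts, 42.8 to 46.5). The log2 ratio was 2.51. At day 7 the gene was low on both sides, with means of 2.44 ± 3.95 and 4.07 ± 5.06 CPM and highest cells at 14.8 and 16.4 CPM.

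Stat5b, its close relative, stood at 38.5, 33.4 and 14.2 CPM in the control pools and at 62.8, 45.3 and 50.4 CPM in the SNT pools. The sides did not overlap, and the log2 change of 0.9995 (SE 0.29, edgeR adjusted p = 0.00931) was just short of the fold limit. In 7 of 15 alternative settings it was called, among them those without control library 1 (1.22) or 2 (1.11) and without SNT library 2 (1.11) or 3 (1.04), while without control library 3 it was 0.72 (edgeR adjusted p = 0.0774, range over the alternatives 0.00293 to 0.0774). Day 3 control cells ran from 5.85 over a median of 30.9 to 84.5 CPM and SNT cells from 8.13 over 50.1 to 335 CPM. The ranges overlapped, with 13 of 41 SNT cells above every control cell and a log2 ratio of 1.05. The ratio lay between 0.92 and 1.17 when any single cell was left out, and it was 0.94 after thinning, 0.90 with 10 CPM added in place of 1 and 0.68 by medians. At day 7 the means were 18.6 ± 12.05 and 26.3 ± 18.1 CPM, with 7 of 33 SNT cells above every control cell. The day 3 count lay above the 90th percentile of all genes and the day 7 count under it.

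Stat5a and Stat5b share sequence, and reads of one may have been counted for the other. Of all stretches of 50 bases in protein-coding Stat5a transcripts of GENCODE M21, 14.7% also occurred in Stat5b, and 11.1% of those of Stat5b occurred in Stat5a. For 75 bases the shares were 9.27% and 7.08%. No other pair of members shared a stretch of either length. These shares do not bound the error of the counts, which can weigh more on the scarcer gene. The control pools held 2, 5 and 1 counts of Stat5a beside 28, 28 and 8 of Stat5b. How far shared reads entered the Stat5a change, or the correlation of Stat5a with Stat5b given below, was not tested. In the RefSeq order of GRCm38.p6, Stat5b, Stat5a and Stat3 follow each other on chromosome 11, and exons of Stat5a and Stat3 overlap on opposite strands over 1.75% of the exon bases of Stat5a and 1.16% of those of Stat3. The neighbours did not move alike, with log2 changes of 0.9995, 3.1 and 0.35 in the pools. Il6st likewise has Il31ra as its neighbour on chromosome 13, and Osmr and Lifr are neighbours on chromosome 15. Il6ra shares 2.80% of its exon bases with Gm42809 on the opposite strand.

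Socs3, which binds gp130 and the Janus kinases and ends their signal, stood at 19.3, 9.53 and 12.4 CPM in the control pools. In the SNT pools it stood at 28.7, 17.4 and 34.9 CPM. In CPM the sides overlapped by 1 library. In TMM-scaled values the highest control value, 18.2, lay just under the lowest SNT value, 18.4. The log2 change was 1.16 (SE 0.39, edgeR adjusted p = 0.0227). It was called in 7 of 15 alternative settings. Scaled by library size alone the edgeR adjusted p was 0.0520, over a range of 0.0103 to 0.167 in the alternatives. The call also ended in DESeq2 (DESeq2 adjusted p = 0.0913), in limma (limma adjusted p = 0.0542) and when thinned to the smallest library (edgeR adjusted p = 0.138). The same held without control library 2 (log2 change 0.93) or 3 (1.117) and without SNT library 1 (1.15) or 3 (0.92). Control cells of day 3 ran from 0 over a median of 11.3 to 64.3 CPM of Socs3 and SNT cells from 0 over 16.7 to 110.3 CPM, so the sides overlapped. At day 7 the medians were 14.5 CPM in control and 4.98 CPM in SNT cells, and 0 of 14 and 13 of 33 cells had no count of the gene. After thinning, 12 of 14 control and 16 of 33 SNT cells of day 7 had a Socs3 count (85.7%, exact Clopper-Pearson 95% interval 57.2 to 98.2%, and 48.5%, 30.8 to 66.5%). The log2 ratios of means, 0.69 at day 3 and -0.60 at day 7, both stayed within 1, while by medians the day 7 ratio was -1.38. With the cells that the authors removed the day 3 ratio was 1.48.

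**Figure D2:**
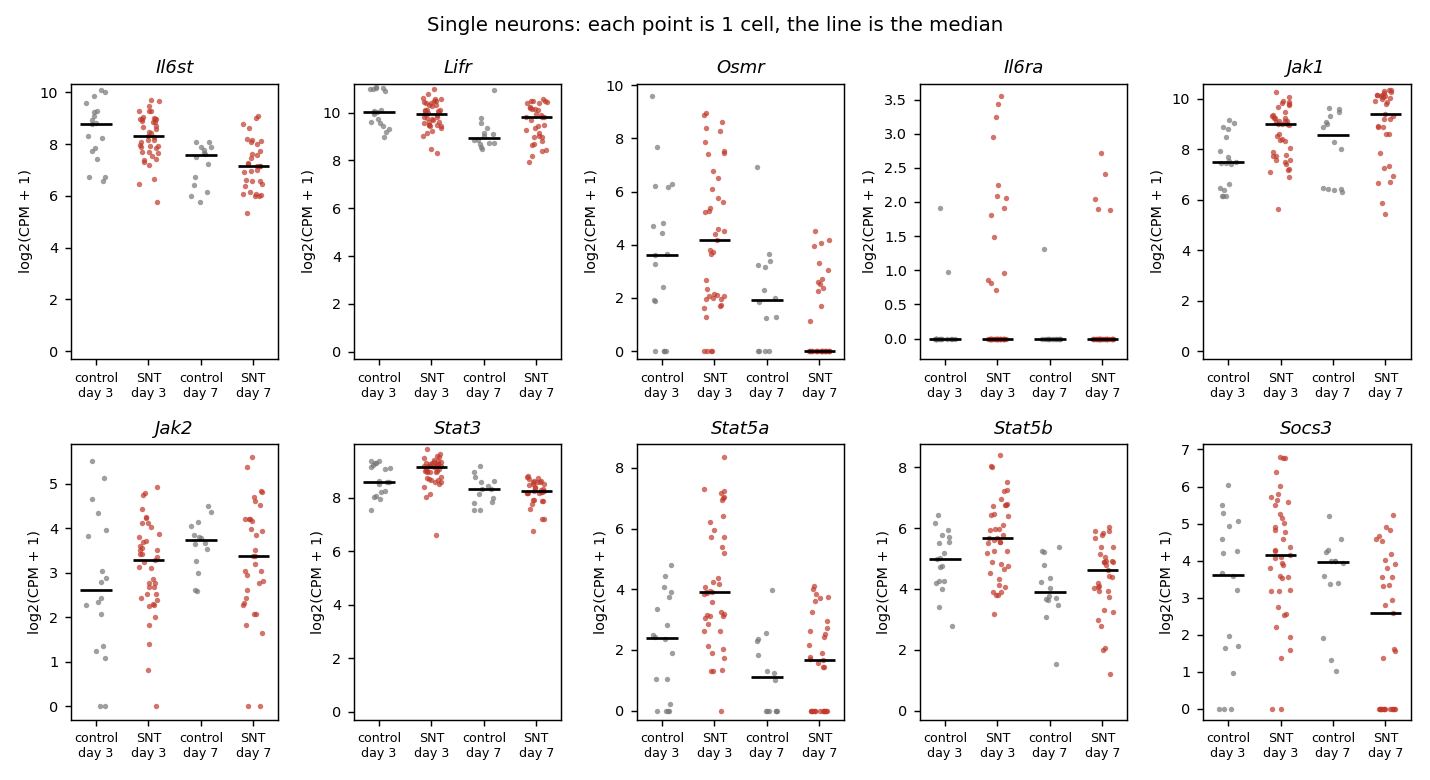
Levels of the 10 members in single kept neurons, as log2(CPM + 1) on a vertical axis that differs between genes, for the control and SNT sides at days 3 and 7. Each point is 1 cell and each line a median; the day 3 SNT cells of Stat5a, Stat5b and Jak1 extend above the control cells, while Osmr spreads from 0 upward on both sides.

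Levels were compared between members only after division by exon length, taken as the union of protein-coding exons in GENCODE M21. In the control pools the order was Lifr at 122 ± 10.4 CPM per kb (SD, 3 libraries), Jak1 at 76.6 ± 6.91, Stat3 at 66.2 ± 7.42, Il6st at 38.9 ± 5.28 and Osmr at 24.4 ± 2.27 CPM per kb. Socs3 and Stat5b followed at 5.38 ± 1.96 and 5.10 ± 2.36 CPM per kb and did not differ beyond their spread, nor did Jak1 and Stat3. Jak2 at 2.02 ± 1.55 and Stat5a at 0.953 ± 0.4933 CPM per kb overlapped in spread, and Il6ra came last. In the SNT pools Jak1 led at 139.9 ± 8.60 CPM per kb, before Lifr at 86.3 ± 4.76 and Stat3 at 75.9 ± 7.89 CPM per kb, of which the last pair overlapped in spread. Il6st followed at 24.8 ± 2.73 CPM per kb. Socs3 at 10.6 ± 3.502, Stat5b at 9.55 ± 1.60, Osmr at 7.41 ± 2.71 and Stat5a at 7.161 ± 1.16 CPM per kb overlapped in spread with their neighbours in this order. In single cells the same genes led, with wide spreads. Day 3 control cells held 117 ± 57.2 CPM per kb of Lifr, 70.3 ± 25.996 of Stat3 and 46.7 ± 33.6 of Jak1, and SNT cells 97.8 ± 60.1 of Jak1, 96.7 ± 36.1 of Lifr and 86.0 ± 24.8 of Stat3. Day 7 control cells held 77.7 ± 55.9 CPM per kb of Jak1, 59.7 ± 38.7 of Lifr and 53.2 ± 19.1 of Stat3, and SNT cells 143 ± 87.6, 81.7 ± 37.8 and 49.3 ± 13.8. In none of these 4 groups of cells did neighbours in order among these 3 genes differ beyond their spread. Il6st came next, at 42.8 ± 28.9 CPM per kb in day 3 control cells, where it overlapped Jak1 in spread. It stood below the spread of Stat3 in the other groups, at 32.9 ± 17.5 CPM per kb in day 3 SNT cells and at 15.1 ± 7.109 and 16.6 ± 12.04 CPM per kb in control and SNT cells of day 7. These orders mix the authors' gene models with lengths from another annotation.

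How the members went together was followed cell by cell. Of the day 3 SNT cells 30 of 41 exceeded every control cell for Atf3. All 14 cells with Stat5a above every control cell were among these 30, as were all 13 such cells for Stat5b, all 6 for Stat3 and all 4 for Socs3, and 10 of the 14 for Jak1. Stat5a and Stat5b were above every control cell together in 8 cells, whereas Jak1 and Stat5a were so together in 1. Across the 41 cells Spearman's rho was 0.74 between Stat5a and Stat5b, 0.53 between Stat3 and Stat5b, -0.24 between Jak1 and Stat5a and -0.53 between Jak1 and Il6st. Stat5a and Stat5b gave lower values in the other groups, 0.19 in the 18 day 3 control cells, 0.28 in the 33 day 7 SNT cells and 0.05 in the 14 day 7 control cells. In the same order Stat3 and Stat5b gave 0.78, 0.58 and 0.34, Jak1 and Stat5a -0.29, 0.04 and -0.07, and Jak1 and Il6st 0.15, -0.48 and -0.66. At day 7, 12 of 33 SNT cells exceeded every control cell for Atf3, and 11 of the 16 such cells for Jak1 were among them. The day 7 SNT means of all members therefore cover more cells without than with such an Atf3 level. Cells of a group share side, library preparation and, for some, an animal, and depth differs between them, so these are descriptions.

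Across the 59 kept day 3 cells of both sides, the genes most like Osmr among 10694 were Stac, Ap2a2, Ctxn1, Gcnt2 and Agtrap, at rho of 0.79, 0.76, 0.72, 0.70 and 0.68. In the 47 day 7 cells, where Osmr was low, the same pairs gave 0.40, 0.45, 0.32, 0.47 and 0.08. For Stat5a the genes were Il17ra, Lmna, Fam129b, Rnh1 and Rnase4, from 0.76 to 0.74 at day 3 and from -0.04 to 0.45 at day 7. Stat3 was most like Arap1, Carhsp1, Socs2, Ptma and Atf5, from 0.83 to 0.76, with day 7 values from -0.02 to 0.48. Socs3 was most like Junb, Egr1, Naa50, Umps and Timm23, from 0.61 to 0.54, with day 7 values from 0.00 to 0.33. The cells of both sides enter these day 3 values. Within the 41 SNT cells alone the same pairs gave 0.70 to 0.85 for Osmr, 0.72 to 0.81 for Stat5a, 0.77 to 0.80 for Stat3 and 0.50 to 0.59 for Socs3.

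The other genes of the pathway were taken from lists of ligands, receptors, kinases and STATs, inhibitors and known STAT3 targets. Of the 9 ligands 2 reached the test in the pools, and neither was called. The summed ligand level was between 0 and 3.55 CPM in the control pools and between 4.78 and 6.99 CPM in the SNT pools. In cells none of the 9 reached 10 CPM on either side at either day.

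Of the 19 other receptors 15 were tested in the pools, 3 were called higher and 1 lower, with a median log2 change of -0.07. Past a log2 ratio of 1 in cells were 4 of 14, all higher, at day 3, and 2 higher and 1 lower of 12 at day 7. Il31ra, the partner of Osmr in the interleukin-31 receptor, stood at 1.38, 3.58 and 12.4 CPM in the control pools and at 43.04, 48.7 and 27.9 CPM in the SNT pools. The sides did not overlap (log2 change 3.04, SE 0.46, edgeR adjusted p = 2.03e-06), at 4.05 without control library 3. It thus went the other way from Osmr in the same libraries. In single cells of day 3 its mean was 2.40 ± 3.85 CPM in control and 103 ± 193 CPM in SNT cells, with 27 of 41 SNT cells above every control cell. Of the 41 SNT cells, 28 had Il31ra and 24 had Osmr above 10 CPM, and 15 had both. On the control side 2 of 18 cells had Il31ra above 10 CPM, and both also had Osmr. At day 7 Il31ra exceeded 10 CPM in 0 of 14 control and 5 of 33 SNT cells, and 1 of these 5 had Osmr above 10 CPM. Of the 6 markers taken for the itch neurons known for Il31ra and Osmr, Il31ra is itself 1, and the others did not move alike in cells. Sst was above 10 CPM in no kept cell, and Nppb in 1 SNT cell of day 3, at 343 CPM, which also had Il31ra and Osmr above 10 CPM. Nts exceeded 10 CPM in 31 of 41 SNT cells of day 3, among them 25 of the 28 with Il31ra, and Htr1f in 14 of 41. At day 3 the log2 ratio was 6.31 for Nts, 2.52 for Htr1f (4.49 without 1 control cell) and 0.29 for Cysltr2, and at day 7 it was 7.02 for Nts and 1.65 for Htr1f. In the pools Htr1f went the other way, at 20.6, 13.1 and 33.7 CPM in control against 6.58, 12.2 and 5.99 CPM in SNT libraries, and was called lower (log2 change -1.29, SE 0.47, edgeR adjusted p = 0.0408).

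**Figure D3:**
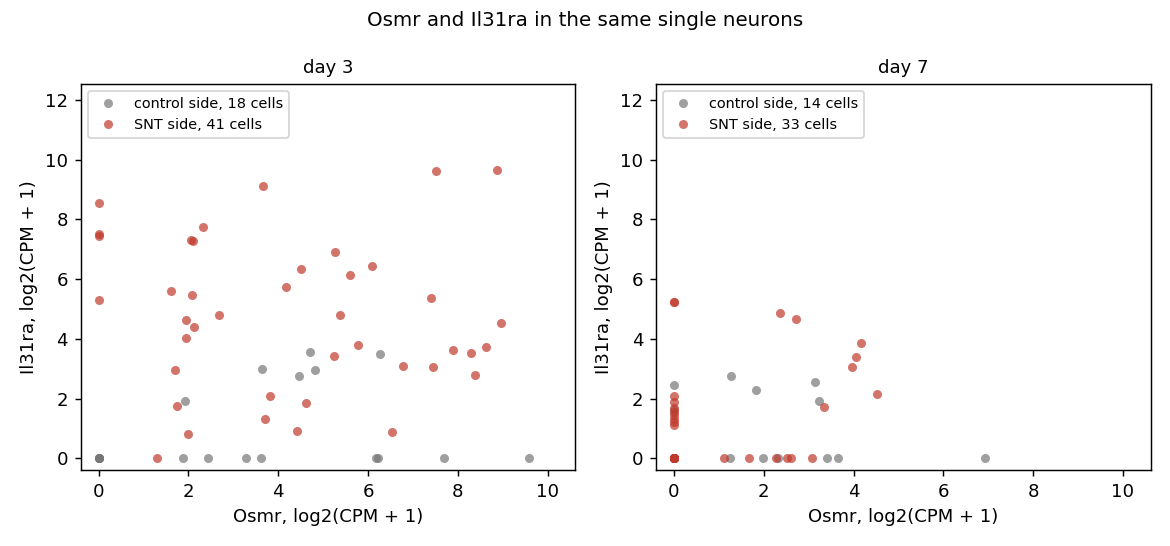
Osmr (horizontal axis) against Il31ra (vertical axis), both as log2(CPM + 1), in the same kept neurons at day 3 and day 7, with control cells in grey and SNT cells in red. At day 3 SNT cells fill the upper part of the plot at every level of Osmr, and 15 of 41 had both genes above 10 CPM; at day 7 Osmr exceeded 10 CPM in 2 of 14 control and 4 of 33 SNT cells and Il31ra in 0 and 5.

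Il13ra1 and Il4ra, which form the receptor of interleukin-4 and interleukin-13, were the other receptors called higher, at log2 changes of 3.00 (SE 0.41, edgeR adjusted p = 2.95e-07) and 2.08 (SE 0.33, edgeR adjusted p = 4.31e-06). Il13ra1 rose from 2.75, 11.9 and 3.55 CPM to 60.4, 43.5 and 37.9 CPM, with no overlap, and its log2 change was 4.04 without control library 2. Its mean at day 3 was 10.1 ± 15.5 CPM in control and 87.9 ± 97.2 CPM in SNT cells, and 22 of 41 SNT cells lay above every control cell. At day 7 the means were 5.74 and 18.5 CPM, while the medians went the other way, at 1.97 and 0 CPM. For Il4ra the day 3 ratio was 0.81 and the day 7 ratio 0.02. The receptor called lower was Ghr, the growth hormone receptor, at -1.09 (SE 0.30, edgeR adjusted p = 0.00459) and not called without SNT library 1 (-0.91), a name taken after its value was seen.

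Of the 6 other kinases and STATs 5 were tested in the pools, and the list had a median log2 change of -0.33. In cells none of the 3 genes of the list that reached 10 CPM was past a log2 ratio of 1 at either day.

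All 16 other inhibitors were tested, of which 3 were called higher and 3 lower, with a median log2 change of -0.05. In cells 2 were higher and 2 lower of 14 at day 3, and 1 of 14 was lower at day 7. Ptpn6, a phosphatase best known from blood cells, had 0 counts in the control pools and 65 in the SNT pools, at least 9.56-fold higher than a floor of 3 counts over the control libraries. Its mean at day 3 was 7.83 CPM in control and 8.52 CPM in SNT cells, but 1 control cell at 123.8 CPM held 87.8% of the control sum, and the log2 ratio of 0.11 was 2.24 without it. Immune markers moved beside it: the sums of 10 had medians of 1.42 and 11.7 CPM in day 3 control and SNT cells and reached 64.3 and 3316 CPM, and their part in its level was not tested. The phosphatase Ptprt was lower (log2 change -2.89, SE 0.25, edgeR adjusted p = 3.79e-12), as was Socs5 (-1.82, SE 0.29, edgeR adjusted p = 5.54e-06), and both were also past a log2 ratio of -1 in day 3 cells, at -1.27 and -1.19. For Ptprt the day 3 ratio was 0.41 when medians were compared, and the day 7 ratio was -1.31, or 0.06 without 1 control cell. The remaining calls, named after their values were seen, were Cish and Ptpn1, higher at 1.32 and 1.46, and Socs7, lower at -1.04. Socs7 was called in 9 of 15 alternative settings: without control library 1 or 2 it was at -0.90 and -0.995, without SNT library 2 or 3 at -0.89 and -0.96, in limma and with a prior count of 2 at -0.99, and none of these was called. Cish, an inhibitor known as a target of STAT5, stood at 12.2 ± 25.5 and 38.6 ± 37.5 CPM in day 3 cells, control side first (log2 ratio 1.59, or 2.25 without 1 control cell), and at 22.6 ± 25.8 and 23.9 ± 26.7 CPM at day 7.

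Of 20 known STAT3 targets 15 were tested, 3 were called higher and 1 lower, with a median log2 change of -0.16. The medians of the receptor, kinase and STAT, inhibitor and target lists stood beside 0.02 over all genes and were the same with genes absent from the control pools set at their lower bound. Past a log2 ratio of 1 in cells were 1 higher of 12 targets at day 3 and 2 lower of 10 at day 7. Gfap, a filament protein of glia, had 0 counts in the control pools and 7, 0 and 20 counts in the SNT pools, summed at least 3.97-fold higher than the floor of 3 counts. So 1 SNT library had none, and the call was made in 8 of 15 alternative settings. It ended in DESeq2 (adjusted p = 0.473, range over the alternatives 0.00458 to 0.473), in limma and without control library 1 or 3 (edgeR adjusted p = 0.0635 and 0.0566), and without SNT library 3, when thinned or with a mean of 10 CPM required it was not tested. Pim1, a kinase induced by cytokines, was higher at 1.47 (SE 0.43, edgeR adjusted p = 0.00914), though not when thinned (edgeR adjusted p = 0.0506, range over the alternatives 0.00671 to 0.0506), and Fos was lower at -1.37 (SE 0.24, edgeR adjusted p = 2.68e-05). Pim3, named after its value was seen, was the remaining call, higher at 1.28. In cells Pim1 had a ratio of 1.45 at day 3 and 0.58 at day 7. For Fos the day 3 ratio was 0.04, between -0.68 and 0.57 when any single cell was left out, and 1.18 with the cells that the authors removed. Its day 7 ratio was -1.20, and from -1.40 to -0.94 when any single cell was left out.

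Markers of neuron classes and of other cells moved in the same pools. All 6 markers of nonpeptidergic neurons were called lower, their sum going from 3228, 3150 and 3431 CPM to 428, 438 and 416 CPM. Mrgprd was the most abundant of them in the control pools and P2rx3 in the SNT pools. All 5 markers found of C-fibre low-threshold mechanoreceptors were also lower, at sums of 880.1, 1053.5 and 1024 CPM against 103, 159 and 116 CPM. Gfra2, a gene of both lists, was the most abundant of these in the control pools and Th in the SNT pools. Of 5 peptidergic markers 1 was higher and 2 were lower, and of 6 markers of large myelinated neurons 3 were higher. Of the 4 itch neuron markers tested, Il31ra included, 2 were higher and 1, Htr1f, lower. Of 10 general neuron markers 1, Tubb3, was higher, and all 4 injury markers were. Of 10 glial markers 4 were lower, and the sum of the list went from 12668, 15388 and 14895 CPM to 6314, 7124 and 6755 CPM, most of it Apoe. Of 10 immune markers Csf1r and Cd14 were called higher, with sums of at most 5.96 CPM in the control and 17.3 CPM in the SNT pools, and Ptprc, Cd68, Aif1, C1qa, C1qb, S100a8 and S100a9 were under 1 CPM. Of 7 vascular and fibroblast markers Cldn5 was called higher and Col1a2 lower. Col1a2 was the most abundant of the list in the control pools and Dcn in the SNT pools, with sums of 75.6, 57.2 and 72.8 CPM in the control and 37.7, 42.7 and 50.9 CPM in the SNT pools. The 1 erythrocyte marker tested was not called. The part of these markers in the levels of Osmr, Ptpn6 and the other members was not tested.

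The same lists moved in single cells. Past a log2 ratio of 1 in cells of day 3, where Jak1, Stat5a and Stat5b were higher, 5 of 6 nonpeptidergic, 4 of 5 peptidergic and 4 of 4 markers of C-fibre mechanoreceptors were lower, and 1 peptidergic marker was higher. Of the general neuron markers 2 of 10 were lower, 1 of 3 vascular and fibroblast markers and the 1 erythrocyte marker at 10 CPM were lower, and 3 of 3 itch, 2 of 6 large myelinated and 2 of 2 immune markers were higher. The immune pair, S100a8 and S100a9, had ratios of 1.09 and 0.09 without 1 SNT cell, and Spp1, 1 of the large myelinated markers, had 0.50. The median sums were 1494 CPM in control and 957 CPM in SNT cells for the nonpeptidergic list and 2856 and 965 CPM for the peptidergic list, and their part in the levels of the members was not tested. No glial marker was past a log2 ratio of 1 in cells of day 3, and the median sums of the 10 were 3857 CPM in control and 3886 CPM in SNT cells. At day 7 these were 5304 and 1631 CPM, again with 0 of 10 past the ratio, and the median sums of the 6 nonpeptidergic markers were 243 and 69.9 CPM, with 3 of 5 lower. Higher at day 7 were 2 of 2 itch, 3 of 6 large myelinated, 2 of 2 immune and 3 of 3 erythrocyte markers. The erythrocyte sums reached 33.1 CPM in control and 4670 CPM in SNT cells and the immune sums 7.38 and 760 CPM. Without 1 SNT cell the ratios were -0.76, -0.36 and 0.06 for Hba-a1, Hbb-b1 and Hbb-b2, and 0.66 and 0 for S100a8 and S100a9. Of the remaining lists 2 general neuron markers of 10 were lower, 2 peptidergic markers of 5 were higher and 1 lower, and 1 C-fibre mechanoreceptor marker of 4 was higher and 2 lower. The part of these lists in the day 7 levels of the members was not tested.

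Promoter sequences are shown for Socs3, the 1 member with a STAT motif in this window, and for Il31ra and Cish, chosen from the receptors and inhibitors that hold it because they were called higher. Of the other holders of the motif in the lists, Prlr, Ifnar1, Ifnar2 and Bcl6 were not called, and Icam1 did not reach the test. Gfap was called higher in the main setting, but in only 8 of 15 alternative settings. The motif TTCNNNGAA, which reads the same on both strands, was searched in RefSeq promoters of GRCm38.p6, each from 250 bases before to 50 after the gene start. All 10 members had an entry, and 1 held the motif in any of its promoters, as did 9.55% of all 27025 genes with an entry. Of the 15 other receptors with an entry 4 held it, of the 9 inhibitors 1, of the 17 STAT3 targets 3 and of the 6 ligands and the 5 other kinases and STATs none. A match is a description and not a binding site. Socs3 lies at chr11:117969317-117969616 on the minus strand, Il31ra at chr13:112580613-112580912 on the minus strand and Cish at chr9:107296409-107296708 on the plus strand, with the motif in capitals:
Socs3: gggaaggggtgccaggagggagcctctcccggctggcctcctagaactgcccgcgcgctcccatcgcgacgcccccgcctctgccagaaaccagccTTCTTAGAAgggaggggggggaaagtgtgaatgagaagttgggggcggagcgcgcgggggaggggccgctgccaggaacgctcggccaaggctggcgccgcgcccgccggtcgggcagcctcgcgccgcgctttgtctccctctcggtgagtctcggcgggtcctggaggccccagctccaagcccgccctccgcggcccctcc
Il31ra: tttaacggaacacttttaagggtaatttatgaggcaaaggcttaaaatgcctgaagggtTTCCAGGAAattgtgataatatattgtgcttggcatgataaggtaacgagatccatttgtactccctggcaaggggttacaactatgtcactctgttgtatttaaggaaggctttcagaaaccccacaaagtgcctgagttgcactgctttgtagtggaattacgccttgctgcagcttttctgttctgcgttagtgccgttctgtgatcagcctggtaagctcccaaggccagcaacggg
Cish: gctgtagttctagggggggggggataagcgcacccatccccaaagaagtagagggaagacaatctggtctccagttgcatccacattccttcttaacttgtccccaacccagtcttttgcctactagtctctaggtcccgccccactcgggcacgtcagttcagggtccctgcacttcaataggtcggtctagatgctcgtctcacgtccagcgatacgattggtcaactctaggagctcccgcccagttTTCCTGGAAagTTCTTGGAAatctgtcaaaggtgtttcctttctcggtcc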

How the data were processed

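The authors demultiplexed with CASAVA 1.8.2, aligned with bowtie2 and estimated expression with RSEM against RefSeq exons, with mm9 named in the submitters' processing notes. The deposited values are expected counts, although the tables are named for another unit: columns sum to 223967 to 2003817, and 60.7 to 93.6% of the values above 0 are whole. They were rounded for the test, and genes were matched by symbol. Pooled libraries were compared in edgeR 4.0.16 (R 4.3.3) with TMM scaling, a mean of at least 1 CPM and Benjamini-Hochberg adjustment over all genes tested; SEs were derived from the F statistic. Cells came from the table without 11 outliers, and a log2 ratio counts as past 1 where the larger group mean reached 10 CPM. Alternatives used DESeq2 1.42.0, limma 3.58.1 and other scalings, filters and cells. Scripts were tested on simulated data. Named genes were the members, up to 3 called genes of largest change per pathway list and the 5 likest genes of 4 members. The members and lists were chosen with earlier results of these data known. The labels give 106 neurons per pool; the study's methods give another number. Spike-ins were not used here, and results of some genes of the lists are not reported here. Whether counting used strand is not given in the sources used here, so the overlap of Stat5a and Stat3 cannot be separated.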

Additional observations from a re-analysis of the deposited data

Results flagged for a closer look

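In the 11 day 3 cells that the authors removed as outliers, used here only as an alternative, the highest cell exceeded the highest kept control cell for 4 members, for 1 of them on both sides. Socs3 reached 1306 CPM in SNT cells and 198 CPM in control cells left out, against 64.3 CPM in the highest kept control cell, and 3 of 7 and 1 of 4 of those cells were above it. Among the SNT cells left out, Stat5a reached 87.4 CPM, Jak2 59.7 CPM and Il6ra 4.98 CPM. With all cells included, the Socs3 log2 ratio at day 3 was 1.48.

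Among day 7 control cells, taken by the sex on the label (7 cells each), 1 cell stood apart from the rest of its group in 5 of 19 groups checked. The gap rule used passes about 1 in 20 groups only where values are normally distributed, which was not tested for these CPM. The groups reuse the same cells over the members, and the high Lifr and Osmr values among cells labelled male came from 1 cell. The count of 5 is therefore not set against a chance rate. For Il6ra 1 cell alone had a count, so it had to stand apart; of the other 18 groups 4 held such a cell. Those cells had 874 CPM of Lifr among cells labelled female, in the cell whose sex genes differ from that label, and 1946 CPM of Lifr, 120.7 CPM of Osmr, 1.48 CPM of Il6ra and 14.8 CPM of Stat5a among cells labelled male. Without the former cell the log2 ratio of Lifr in cells labelled female was 1.09, against 0.90 with it.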

How the results depend on the processing

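Osmr and Stat5a were called under every pooled alternative, at log2 changes from -1.88 to -1.34 and from 2.64 to 3.76. Jak1, Socs3 and Stat5b lay close to the fold limit. Members called fell from 4 to 2 with library size alone and to 2 when thinned to the smallest library, and ranged from 2 to 5 when 1 library was left out; the cause was not tested. Under library size alone the median change over all genes was -0.14 (log2), and the calls went from 1193 higher and 961 lower to 978 and 1265. Jak2, not called, was at 0.0947 in limma and from -0.79 to 0.30 when 1 library was left out. With library number as a block 2008 genes and 5 members were called, Stat5b being added; the numbers did not pair the libraries, with correlations of 0.31, -0.02 and -0.04 of same-numbered deviations, and libraries did not all correlate best with their own number. In day 7 cells no member (0) was past the fold with a pseudocount of 10 CPM. By medians the ratio of Ptprt was 0.41 at day 3 and that of Il13ra1 -1.57 at day 7. Without the day 7 control cell whose sex genes differ from its label, 1 member, Osmr, was still past the fold, and in cells labelled female without it 1 member, Lifr; these settings and the leaving out of single cells were chosen after seeing the data. At day 3 the members past the fold were 2 to 4 under all alternatives. Depth limits Il6ra, Jak2 and, on the control side, Stat5a.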
